A study of Mus musculus with 66 samples.

Results

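The comparison described here is the RNA level 60 minutes after release from mitotic arrest against the level in arrested cells, in mouse embryonic stem cells whose nuclear receptors Esrrb and Nr5a2 were degraded with auxin. Its members are the genes whose level was 1 TPM or more at any of the 9 stages measured with auxin, which were 8864 of the 13957 genes in the deposited table. TPM is an RNA level scaled for gene length and for the size of the library. The other 5093 genes stayed under that level. Ccdc159 was the last gene inside the rule, with a highest level of 1.001 TPM, and the first gene outside it lay just under that level.

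The cells were an E14Tg2a derivative of the 129/Ola background, a mouse embryonic stem cell line in which auxin triggers degradation of both receptors at once. The 2 groups compared were cells with auxin arrested in mitosis and cells with auxin 60 minutes after release, with 3 libraries each. The same line without auxin, in mitosis and at 60 minutes, served as the second arm. Cells with auxin at 20, 30, 40, 50, 90 and 120 minutes after release and growing asynchronously give the course around the comparison. The titles of the samples give the arm, as their treatment entry carries the same control code throughout. The deposited columns carry only the letters m and p, which were read as minus and plus auxin, and the arm of every value rests on that reading. No group received auxin without the degradable receptors, so auxin itself and the loss of either receptor cannot be told apart. The method of the arrest, the time of auxin before release and the number of clones of the line are not stated.

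During mitosis most transcription stops, chromosomes condense and many transcription factors leave the DNA. As cells divide and rebuild a nucleus, RNA polymerase II starts again at most active genes, and a burst of synthesis before the steady level of the new interphase is well known. Esrrb and Nr5a2 are orphan nuclear receptors of the naive pluripotency network, the set of factors that keeps embryonic stem cells self-renewing, and both are known to stay on part of their sites in mitosis. Factors that stay on mitotic chromosomes are called bookmarking factors, and the series asks what their loss does to the return of expression after mitosis.

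Each value is the authors' mean of 3 libraries, deposited as 1 column per group. No spread between libraries is known, so no test over samples can be made and no p-value is given. Ratios are differences of log2(TPM + 1), a scale that understates the change of low genes. A gene is called 2-fold higher or lower where this difference reached 1 in size. The listed genes summed to 17155 TPM in mitosis and 46542 TPM at 60 minutes with auxin, a 2.71-fold difference, far below the total of the unit. What makes up the rest of the libraries is not stated, nor whether spliced or unspliced RNA was counted, so the values are called RNA levels. Depth per library is unknown. In these bulk samples, fewer cells that have resumed transcription and less RNA per cell cannot be told apart.

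Sequences of 5 microRNAs are shown first, because microRNA genes stood at both ends of the comparison. MicroRNAs are short RNAs that silence messages through their seed, bases 2 to 8 from the 5′ end, printed in capitals. The values below are TPM of the microRNA gene, cut from a longer transcript, and not of the mature microRNA. The sequences are from RefSeq on GRCm38.p6, written 5′ to 3′, and 10 of the 13 microRNA gene symbols among the members had a mature sequence there. miR-20a-5p comes from the gene with the highest ratio of all, and miR-17-5p, from the same cluster, is printed because it has the same seed.
miR-20a-5p: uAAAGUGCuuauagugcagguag
miR-17-5p: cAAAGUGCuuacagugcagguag
miR-34a-5p: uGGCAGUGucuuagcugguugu
miR-101a-3p: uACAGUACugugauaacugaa
miR-496a-3p: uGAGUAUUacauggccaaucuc
The seed AAAGUGC is common to the first pair, and the other 3 sequences each have a seed of their own.

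With auxin, 8372 of the 8864 genes stood above their mitotic level at 60 minutes, and 94.4% is therefore the background for any count of member genes above mitosis. The member rule includes the 60-minute column, so a gene can be a member by being high there, and the shares over members depend on it. With no filter, 12390 of all 13957 genes stood above mitosis and 4208 were at least 2-fold higher. At least 2-fold higher were 4208 genes, 47.5%, and at least 2-fold lower were 5 genes, 0.0564%. The median log2 ratio was 0.96, with the middle 50% of genes between 0.53 and 1.38. Ratios of 2 or more were reached by 493 genes and of 3 or more by 22. Just under the 2-fold line, with ratios of 0.9 to 1, lay 570 genes, and just above it, with ratios of 1 to 1.1, lay 574, so the count is the cut of a continuous distribution. The difference between up and down rests on the scale of the deposited values. When every column was scaled to the same sum, the median ratio was 0.06, with 559 genes at least 2-fold higher and 329 lower, and after quantile normalization it was 0.02, with 475 higher and 339 lower. A gene's place relative to the others is therefore read below against the median of 0.96.

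**Figure D1:**
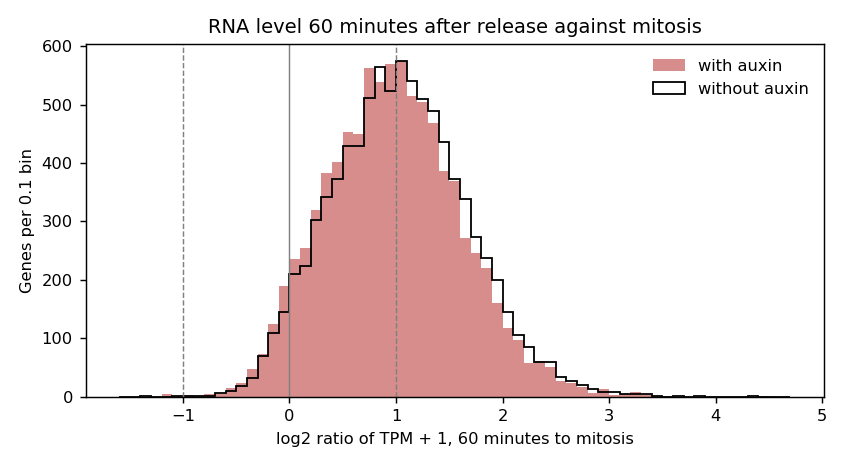
Histogram of the log2 ratio of TPM + 1 at 60 minutes to mitosis over 8864 genes, in bins of 0.1, with auxin (filled) and without auxin (line). The solid grey line marks 0 and the dashed lines a 2-fold difference, and the filled distribution, with its median of 0.96, lies slightly left of the line, whose median is 1.02.

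On the deposited scale, most of the return fell in the hour after release. Genes at least 2-fold above mitosis with auxin numbered 0 at 20 minutes, 6 at 30, 541 at 40, 2742 at 50, 4208 at 60, 4202 at 90 and 3140 at 120 minutes, and 225 in asynchronous cells. These counts are all against the same mitotic column. They ran in the same order as the sums of the listed genes, which were 18221 TPM at 30, 24458 at 40, 38461 at 50 and 41287 TPM at 120 minutes. Of the counts, only that at 60 minutes was repeated with columns of equal sums, which gave 559. The course of the counts may therefore rest on the deposited scale. Of the members 3266, or 36.8%, had their highest value among mitosis and the release times at 60 minutes, against 637 at 50, 2700 at 90, 2151 at 120 minutes and 84 in mitosis. Set against asynchronous cells with auxin, 2646 genes (29.9%) were at least 2-fold higher at 60 minutes and 26 (0.293%) at least 2-fold lower. The median gene stood 0.68 log2 units above its asynchronous level. The listed genes summed to 46542 TPM at 60 minutes and 23435 TPM in asynchronous cells with auxin. This comparison was not repeated under other scalings, so its direction may rest on the deposited scale. From 60 to 120 minutes, 5093 genes (57.5%) went to a lower value.

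The genes that had passed 2-fold by 30 minutes with auxin were Hist1h2br, Rpl9, Rps12, Snhg15, Tssc4 and Tubb4b, a list read off after the values were seen. Without auxin their log2 ratios at 30 minutes were 1.34, 1.08, 0.36, -0.03, 0.54 and 0.94, in that order. Of these genes only Hist1h2br and Rpl9 had thus passed 2-fold in both arms. Hist1h2br encodes a histone H2B, Rpl9 and Rps12 ribosomal proteins and Tubb4b a beta-tubulin. Tubb4b stood at 1.09 TPM in mitosis, 3.27 at 30 minutes, 17.7 at 50 minutes and 17.2 TPM at 60 minutes. Hist1h2br went from 0.966 TPM through 3.84 at 30 minutes to 28.3 at 50 minutes, and at 120 minutes it was back at 1.13 TPM. Histone and ribosomal protein genes have near-identical copies, and Snhg genes host small nucleolar RNAs, so reads may be split between copies and these values are uncertain.

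The highest ratio belonged to Mir20a, a gene of 107 bases at chr14:115044157-115044263 in the cluster that also holds miR-17. It was listed at 0 in mitosis, at 12.04 TPM at 40, 25.5 at 50 and 21.3 TPM at 60 minutes, and at 4.54 at 90 and 2.39 TPM at 120 minutes. The level was thus high in the middle of the course and low at either end. Mir17hg, the host gene of the same cluster, placed by RefSeq at chr14:115044390-115046728, followed another course, with 7.75 TPM in mitosis, 24.02 at 60 minutes and 40.3 TPM at 120 minutes. Its highest value came when that of Mir20a was near its lowest. Values of so short a gene rest on few possible fragments and are uncertain.

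Other microRNA genes differed among themselves. Mir34a, whose microRNA is a known p53 target that restrains cell cycle genes, went from 0.862 TPM to 8.18 at 60 and 31.7 TPM at 120 minutes, with no turn within the course. Mir101a went from 0.845 to 5.37 TPM and Mir22hg, the host of miR-22, from 0.352 to 6.45 TPM. Mir101a lies within the span of E130102H24Rik, a long noncoding RNA gene that went from 1.77 to 0.291 TPM. Reads of this pair may be split unevenly, which was not tested, so both values are uncertain. Of the 13 microRNA symbols among the members 6 were at least 2-fold higher, beside 47.5% of all genes. Mirlet7d, a let-7 gene, had 3.74 TPM in mitosis and 5.13 TPM at 60 minutes, a ratio of 0.37, and Mir30a stood at 3.13 TPM at 40 minutes and was listed at 0 at 60 minutes.

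The protein-coding genes with the highest ratios came from several functions. Atp1b1, a subunit of the sodium pump, stood at 1.15 TPM in mitosis and 21.8 TPM at 60 minutes, a log2 ratio of 3.41. Cd68, a lysosomal membrane protein, went from 0.886 to 18.6 TPM and Peg3, a paternally expressed imprinted gene, from 0.390 to 13.4 TPM. All of them were lower again at 120 minutes, at 2.89 TPM for Atp1b1, 5.09 for Cd68 and 2.71 TPM for Peg3. Dnajb14, a co-chaperone of the endoplasmic reticulum, showed the same shape, with 0.488 TPM in mitosis, 13.5 at 60 minutes and 1.17 at 120 minutes. Irs2, an adaptor of insulin signalling, stood at 0.504, 13.1 and 1.98 TPM at those stages. Fzd5, a Wnt receptor, had 0.831 TPM in mitosis and 15.1 TPM at 60 minutes, Mybl1, a transcription factor of the MYB family, 1.35 and 18.8 TPM, and Polg2, the accessory subunit of the mitochondrial DNA polymerase, 1.80 and 24.98 TPM. Tmem230, a membrane protein of vesicle traffic, reached 54.6 TPM at 50 minutes and 44.01 at 60 minutes from 4.19 TPM in mitosis. The remaining genes of the highest 20 were 2410002F23Rik, Snhg6, Tssc4 and Gzmm, with ratios of 3.42, 3.28, 3.27 and 3.24, besides those named before and the sterol genes below.

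Genes at the highest level at 60 minutes included several of RNA and protein production. Rpl13a, a ribosomal protein gene that hosts small nucleolar RNAs, stood at 74.8 TPM, against 23.7 TPM in mitosis. Pcna, the sliding clamp of DNA replication, stood at 17.2 TPM in mitosis, 72.7 at 50 minutes, 62.96 at 60 minutes and 30.005 TPM at 120 minutes. Tra2b and Srsf7, splicing regulators, reached 57.2 and 55.9 TPM, and Nop56, a nucleolar protein of ribosomal RNA processing, 55.98 TPM. A high level was not always a high ratio. Tomm20, a subunit of the mitochondrial import channel, had 31.8 TPM in mitosis and 50.9 TPM at 60 minutes, and Nap1l1, a histone chaperone, 34.3 and 50.4 TPM. Their ratios of 0.66 and 0.54 lay under the all-gene median, and both were below 0 when the columns were scaled to equal sums (-0.75 and -0.86).

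**Figure D2:**
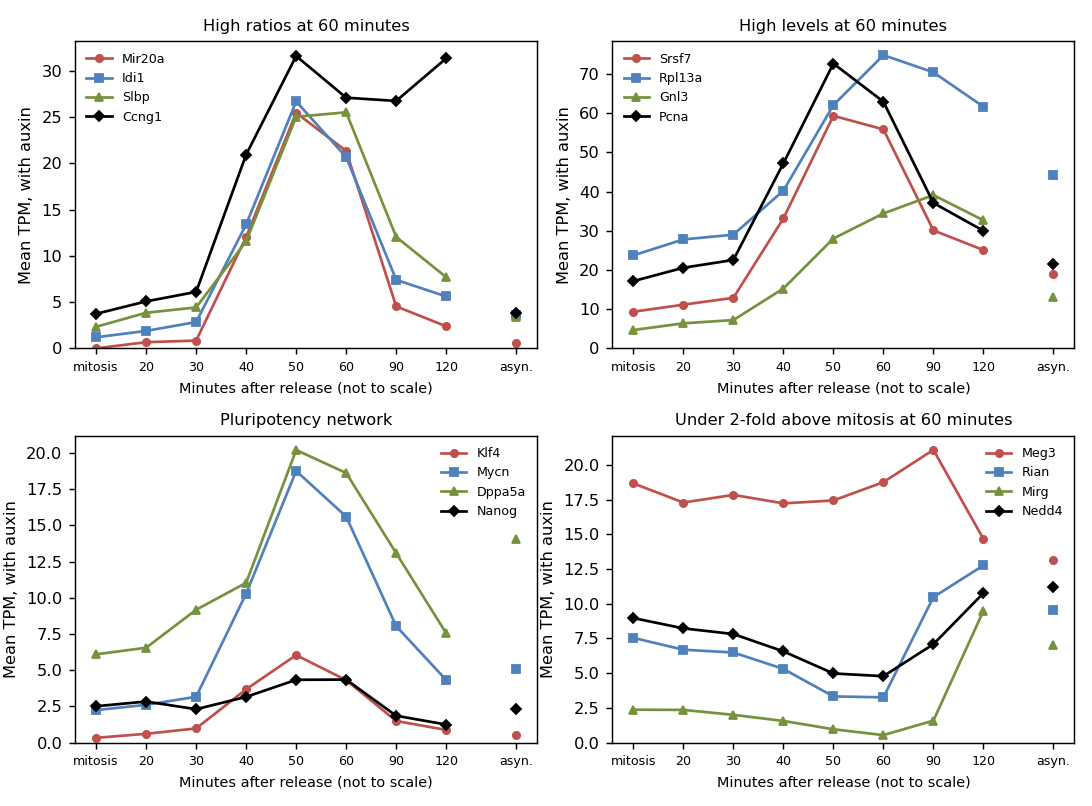
Authors' mean TPM with auxin for 16 named genes by stage, from mitosis through 120 minutes after release, with asynchronous cells as separate points; stages are evenly spaced and each panel has its own linear axis from 0. Mir20a, Idi1 and Klf4 are highest at 50 minutes and low again by 120 minutes, while Gnl3 is highest at 90 minutes and Rian and Mirg are lowest near 60 minutes.

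The members were described by 31 gene lists of cell functions, of which 29 had 3 or more members. In 25 of these 29 lists the share of members at least 2-fold higher was above the 47.5% of all genes. With genes of at least 5 TPM, 15 lists stood above the share of the genes kept by that filter. The lists were chosen with earlier results of these data known, so their shares are given as description, with no test. Each median is read beside the 0.96 of all genes. The lists also differed in median gene span, from 3169.5 bp for cytoplasmic ribosomal proteins to 45436 bp for cohesin and Ctcf genes. Shorter genes had higher ratios, as described below, and no list was adjusted for span. After scaling to equal sums, the medians of the naive, formative, primitive endoderm, DNA methylation, amino acid, oxidative stress, Nodal and nuclear pore lists were below 0, so the direction of these lists relative to mitosis depends on the scale.

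Genes of immediate response and of the entry into the cell cycle stood high. Immediate early genes, which answer growth signals without new protein, had a median ratio of 1.81 and 19 of 22 members at least 2-fold higher. Btg1, an antiproliferative factor, stood at 0.793 TPM in mitosis, 9.43 at 40, 12.01 at 50 and 8.54 TPM at 60 minutes. Gadd45a, a stress-induced growth arrest gene, followed with 1.01, 9.80, 13.7 and 10.2 TPM. Both were past their highest value by 60 minutes. The classic members Fos and Egr1 were the lowest of the list, with ratios of 0.93 and 0.91, and their highest release values of 1.59 and 2.57 TPM came at 50 minutes. Fos reached 1 TPM with auxin only at 40, 50 and 60 minutes, so its ratio is not independent of the member rule. At 120 minutes 21 of the 22 genes were below their level at 60 minutes, beside 57.5% of all genes and 83.8% of the genes at least 2-fold higher at 60 minutes.

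Targets of p53, the factor that answers DNA damage and a delayed mitosis, had a median of 1.78, with 22 of 26 members at least 2-fold higher. Ccng1, a cyclin G and p53 target, stood at 3.74 TPM in mitosis, 20.9 at 40, 31.6 at 50, 27.1 at 60 and 31.4 TPM at 120 minutes, against 3.84 TPM in asynchronous cells. Phlda3, an inhibitor of Akt signalling, went from 0.889 to 11.7 TPM and Eda2r, a receptor of the TNF receptor family, from 2.31 to 17.3 TPM, with asynchronous levels of 1.40 and 2.46 TPM. At 60 minutes 17 of the 26 genes were at least 2-fold above asynchronous cells, beside 29.9% of all genes.

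Genes of the G1/S transition and of DNA replication had a median of 1.70, with 43 of 52 at least 2-fold higher and 33 of 52 at least 2-fold above asynchronous cells, beside 47.5% and 29.9% of all genes. Slbp, which binds the stem loop of histone messages, stood at 2.33 TPM in mitosis, 11.6 at 40, 25.04 at 50 and 25.5 TPM at 60 minutes, then at 7.69 TPM at 120 minutes. Cdt1, a licensing factor of replication origins, went from 2.62 to 21.02 TPM and Gins2, a part of the replicative helicase, from 1.20 to 12.4 TPM. The exception was Pola1, the catalytic subunit of DNA polymerase alpha, at 2.57 TPM in mitosis, 2.52 at 60 minutes and 6.46 TPM at 120 minutes. Its span of 327622 bp is one of the long ones described below. The 10 histone genes among the members, of 30 listed, had a median of 2.14, with 8 at least 2-fold higher. H2afz, the variant H2A.Z, went from 0.847 to 10.7 TPM, while Cenpa, the centromeric histone H3 variant made late in the cell cycle, had 6.34 and 5.24 TPM.

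Genes for mitosis itself also stood above their mitotic level, with a median of 1.33 and 34 of 48 at least 2-fold higher. Ube2c, which builds ubiquitin chains for the anaphase-promoting complex, went from 0.895 TPM to 9.67 at 50 and 8.69 TPM at 60 minutes, and Pttg1, securin, from 1.28 to 11.2 and 10.8 TPM. Ckap2, a microtubule-associated protein, went from 3.25 to 20.8 TPM. At 120 minutes 42 of the 48 were lower than at 60 minutes, beside the same 57.5% and 83.8%, and Ube2c was then at 2.38 TPM. Ccnb2, a mitotic cyclin, differed little across these stages, with 1.53 TPM in mitosis and 1.82 TPM at 60 minutes.

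**Figure D3:**
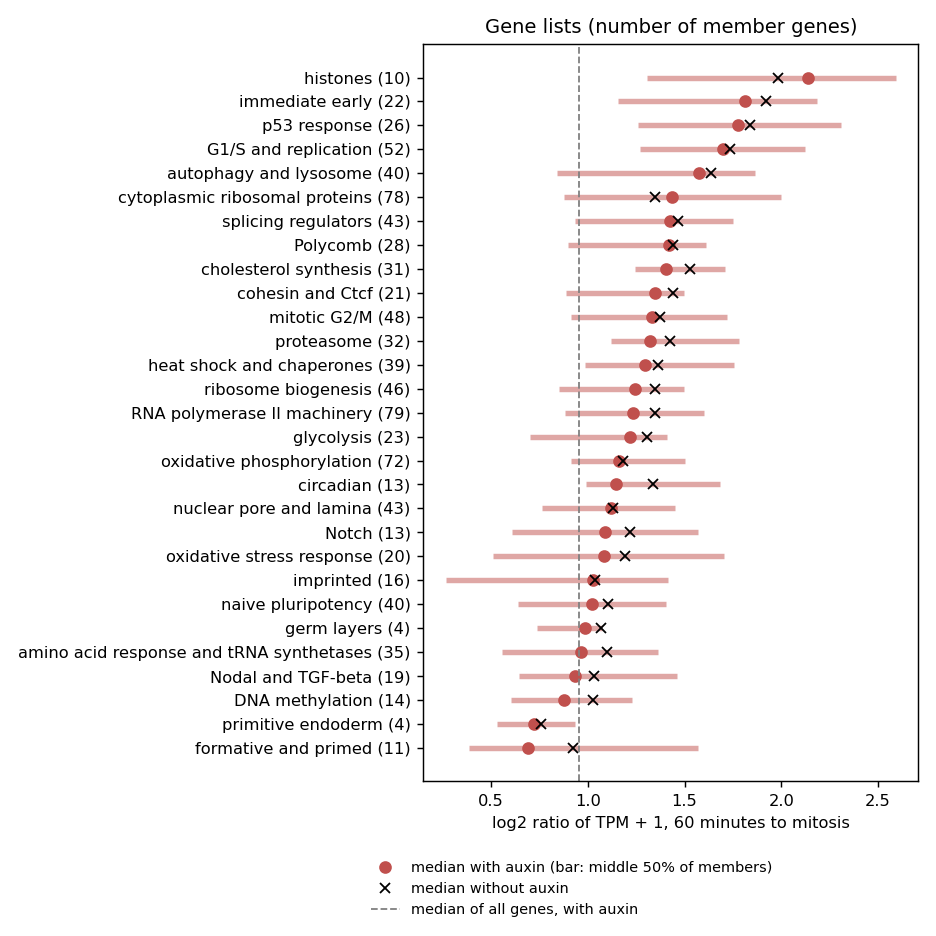
Median log2 ratio of TPM + 1 at 60 minutes to mitosis for the 29 gene lists of 3 or more members, with auxin (filled circles, with bars over the middle 50% of members) and without auxin (crosses), and the number of members in parentheses. The dashed line is the median of all genes with auxin, 0.96, and the histone, immediate early, p53 and G1/S lists lie farthest to its right.

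Cholesterol synthesis genes stood above the all-gene median. Of 31 members 26 were at least 2-fold higher, with a median of 1.40 and the middle 50% between 1.25 and 1.71. Idi1, which isomerises the isoprenoid precursor, stood at 1.20 TPM in mitosis, 1.89 at 20, 2.85 at 30, 13.4 at 40, 26.7 at 50, 20.7 at 60, 7.41 at 90 and 5.61 TPM at 120 minutes. Insig1, which holds the sterol sensor in the endoplasmic reticulum, stood at 1.63 TPM in mitosis, 32.6 at 50, 24.8 at 60 and 4.71 TPM at 120 minutes. Both were highest at 50 minutes and had lost most of that level by 120 minutes, when 30 of the 31 members were below their level at 60 minutes, beside 57.5% of all genes and 83.8% of the genes at least 2-fold higher at 60 minutes. Msmo1, which helps to strip methyl groups from sterols, went from 2.48 to 15.7 TPM. Acaca, which makes malonyl-CoA for fatty acids from a gene of 272017 bp, was the lowest member, with 1.22 TPM in mitosis, 0.834 at 60 and 1.60 TPM at 120 minutes.

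Autophagy and lysosome genes had a median of 1.58, with 28 of 40 at least 2-fold higher. Map1lc3b, which coats autophagosome membranes, went from 0.921 to 14.1 TPM, and Atp6v1b2, a subunit of the lysosomal proton pump, from 2.01 to 21.4 TPM. Chaperones and heat shock genes had a median of 1.30 and 29 of 39 at least 2-fold higher. Hspa5, the chaperone of the endoplasmic reticulum, went from 1.57 to 13.1 TPM and Dnajb1, a cytosolic co-chaperone, from 1.39 to 12.6 TPM, while Hspd1, the mitochondrial chaperonin, had 19.8 and 22.3 TPM. Proteasome genes had a median of 1.32 and 24 of 32 at least 2-fold higher, with Psmd2 and Psmd8 of the regulatory particle at 10.3 and 10.1 TPM from 0.989 and 1.499 TPM.

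Genes that make RNA and ribosomes lay above the all-gene median on the deposited scale. After scaling to equal sums, the median of ribosome biogenesis was 0.002, below the 0.06 of all genes. Splicing regulators had a median of 1.43 and 31 of 43 at least 2-fold higher. Srsf2, a serine and arginine rich splicing factor, stood at 5.13 TPM in mitosis, 29.7 at 40, 44.3 at 50 and 44.2 TPM at 60 minutes, and Srsf5 at 2.58, 20.7, 32.8 and 25.1 TPM. The machinery of RNA polymerase II had a median of 1.23 and 54 of 79 at least 2-fold higher, led by Gtf2f1, a subunit of the initiation factor TFIIF, from 1.19 to 11.4 TPM. Mnat1, a part of the TFIIH kinase with a span of 161804 bp, was lower than in mitosis, at 2.55 and 1.68 TPM. Ribosome biogenesis had a median of 1.25 and 29 of 46 at least 2-fold higher, and Gnl3, nucleostemin, stood at 4.67 TPM in mitosis, 34.4 at 60 and 39.1 TPM at 90 minutes. Cytoplasmic ribosomal proteins had a median of 1.43 with a wide spread, 50 of 78 (64.1%) at least 2-fold higher. Their median span was 3169.5 bp, and in the shortest group of all genes by span, described below, 64.4% were at least 2-fold higher. Rpl10 went from 2.59 to 29.1 TPM, whereas Rps10 had 7.78 and 5.67 TPM and Rpl24 3.47 and 2.77 TPM. Their many processed copies make single values in this family uncertain.

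Energy metabolism lists also lay above the all-gene median. Oxidative phosphorylation genes, with a median span of 7387 bp, had a median ratio of 1.16 and 45 of 72 at least 2-fold higher. Cox6a1, a subunit of cytochrome oxidase, went from 2.31 to 19.2 TPM. Glycolysis and its transporters had 1.22 and 15 of 23, with Pdhb of pyruvate dehydrogenase from 1.67 to 13.4 TPM and Slc16a1, a lactate transporter, from 3.44 to 18.02 TPM. Genes of the amino acid response and tRNA synthetases had a median of 0.97 and 17 of 35, a list with strong single genes. Slc7a5, an amino acid transporter, went from 2.92 to 25.2 TPM, and Ddit3, a stress transcription factor, from 2.61 TPM to 22.1 at 50 and 18.8 at 60 minutes. Eprs, a tRNA synthetase, had 2.52 and 2.60 TPM. Oxidative stress response genes had 1.09 and 12 of 20, with their regulator Nfe2l2 from 2.52 to 15.5 TPM.

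Chromatin genes were mixed. Polycomb genes had a median of 1.42 and 17 of 28 at least 2-fold higher, led by Phf1, Bmi1 and Pcgf1, from 1.11 to 9.95, 0.199 to 4.73 and 0.491 to 6.02 TPM. Jarid2, a cofactor of Polycomb repressive complex 2, had 14.9 TPM in mitosis and 15.6 TPM at 60 minutes. Cohesin and Ctcf genes had 1.35 and 14 of 21, with Esco2, the acetyltransferase of cohesin, from 2.57 to 18.1 TPM and Stag1, a cohesin subunit, at 2.34 and 2.92 TPM. DNA methylation genes had 0.88 and 6 of 14, a share below the background. Uhrf1, which recruits the maintenance methyltransferase, went from 6.11 to 23.97 TPM, and Tet1, which oxidises methylcytosine, from 10.5 TPM in mitosis to 6.76 at 50, 7.01 at 60 and 11.6 TPM at 90 minutes. Tet1 was thus lowest near 50 to 60 minutes. Nuclear pore and lamina genes had 1.12 and 25 of 43, with Nup62, a channel nucleoporin, from 1.04 to 11.1 TPM. Circadian genes had 1.15 and 9 of 13, with Per1 from 0.201 to 3.61 TPM.

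Signalling and fate genes were led by a few members. Notch genes had a median of 1.09 and 9 of 13 at least 2-fold higher. The ligand Dll1 went from 0.173 to 6.92 TPM, the ligand Jag1 from 0.718 to 9.94 TPM and the target Hes1 from 0.282 to 5.34 TPM, while Rbpj, the DNA-binding partner of the receptor, had 5.24 and 7.18 TPM. Nodal and TGF-beta genes had 0.93 and 7 of 19. The ligand Nodal went from 2.34 to 9.997 TPM, the receptor Tgfbr1 from 1.18 to 7.91 TPM and the inhibitor Smad7 from 1.67 to 8.70 TPM. The feedback antagonist Lefty1 stood at 0.409 TPM in mitosis, 0.804 at 60 and 0.763 TPM at 120 minutes, far from its 12.8 TPM in asynchronous cells, and Lefty2 had 0.234 TPM at 60 minutes and 2.34 TPM in asynchronous cells. Formative and primed pluripotency genes had 0.69 and 4 of 11, with Zic2, a transcription factor, from 0.966 to 7.46 TPM and Spry4, a brake on FGF signalling, at 10.6 and 10.8 TPM. The 2 members each of the trophectoderm and fibroblast lists had ratios of 1.05 to 1.24 and 1.14 to 1.49. Primitive endoderm had 1 of 4 and germ layers 2 of 4 members at least 2-fold higher. Eomes of the trophectoderm list and Fst, the 2-fold gene of primitive endoderm, reached 1 TPM only at 50 and 60 minutes. Their ratios are therefore not independent of the member rule. Under that rule 7 trophectoderm, 3 fibroblast, 10 primitive endoderm and 6 germ layer genes of the deposited table were left out.

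The naive pluripotency genes lay near the average gene. Of 45 listed genes 40 were members, and 20 of these were at least 2-fold higher, 50.0% beside 47.5% of all genes. Their median of 1.02 was 0.07 above that of all genes, and it was -0.12 after scaling to equal sums, where that of all genes was 0.06. The median span of the naive genes was 11838 bp. In the span group nearest to that, described below, 56.2% of genes were at least 2-fold higher, with a median ratio of 1.09. Prdm14, Nr0b1, Fgf4 and Ooep stayed under 1 TPM at every stage with auxin, and Sox2 was not analysed here. Within the network the range ran from 2.36 for Mycn to -0.53 for Tet1.

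Among its transcription factors the Myc and Klf genes were highest. Mycn, a growth regulator, stood at 2.25 TPM in mitosis, 10.3 at 40, 18.8 at 50, 15.6 at 60 and 4.32 TPM at 120 minutes, and Myc at 0.410, 3.33, 7.24, 5.20 and 1.68 TPM. Klf4, a reprogramming factor, stood at 0.327, 3.68, 6.04, 4.31 and 0.873 TPM at the same stages. All 3 were highest at 50 minutes and lower again by 120 minutes. Klf2 went from 2.32 to 11.9 TPM and Klf5 from 2.10 to 10.5 TPM, and Klf5 stayed at 10.1 TPM at 120 minutes. Pou5f1, the central factor Oct4, went from 6.28 to 17.03 TPM with a ratio of 1.31, which was -0.0002 after scaling to equal sums.

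Nanog and Zfp42 lay under the all-gene median. Nanog, a homeobox factor of self-renewal, stood at 2.51 TPM in mitosis, 4.34 at 50, 4.35 at 60, 1.85 at 90 and 1.25 TPM at 120 minutes, a ratio of 0.61. Zfp42, the marker Rex1, stood at 16.7 TPM in mitosis, 28.9 at 60 and 46.5 TPM at 120 minutes, a ratio of 0.76. After scaling to equal sums their ratios were -0.50 and -0.62. Nanog was past its highest value by 90 minutes and Zfp42 was still higher at the end. Sall4, Tbx3, Gbx2 and Tfcp2l1, further factors of the network, had ratios of 0.65, 1.32, 1.38 and 0.32.

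The genes of the degraded receptors were themselves in the comparison. Auxin acts on the proteins, so these RNA levels do not check the degradation. Esrrb stood at 1.47 TPM in mitosis, 1.52 at 20, 1.70 at 30, 2.05 at 40, 3.75 at 50, 5.94 at 60, 6.27 at 90 and 4.33 TPM at 120 minutes, a ratio of 1.49 at 60 minutes. Nr5a2 stood at 2.87, 2.67, 2.66, 2.61, 2.73, 3.80, 5.65 and 4.97 TPM at those stages, a ratio of 0.31. On the deposited scale Esrrb was above its mitotic level from 20 minutes on, by little at first, and Nr5a2 only from 60 minutes. No spread is known and the earlier stages were not compared under other scalings, so a difference in onset was not tested. After scaling to equal sums the ratio of Nr5a2 was -0.80 and that of Esrrb 0.44.

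The signal branch and the surface and germline genes of the network filled the middle. Of the LIF pathway, the cytokine route that sustains these cells, the receptor subunits Lifr and Il6st had ratios of 0.67 and 1.16, the transducer Stat3 1.06 and its feedback inhibitor Socs3 1.25. Dppa5a, an RNA-binding protein of pluripotent cells, went from 6.10 to 18.6 TPM, Tdgf1, a Nodal co-receptor, from 2.22 to 8.96 TPM, Utf1, a chromatin factor, from 1.49 to 8.29 TPM and Spp1, osteopontin, from 1.37 to 5.78 TPM. Tdh, an enzyme of threonine use, had 9.65 TPM in mitosis and 8.505 TPM at 60 minutes, and Jam2, an adhesion protein, 2.03 and 2.34 TPM. Tdh, Manba and Tet1 were the members of the network that were not above mitosis.

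**Figure D4:**
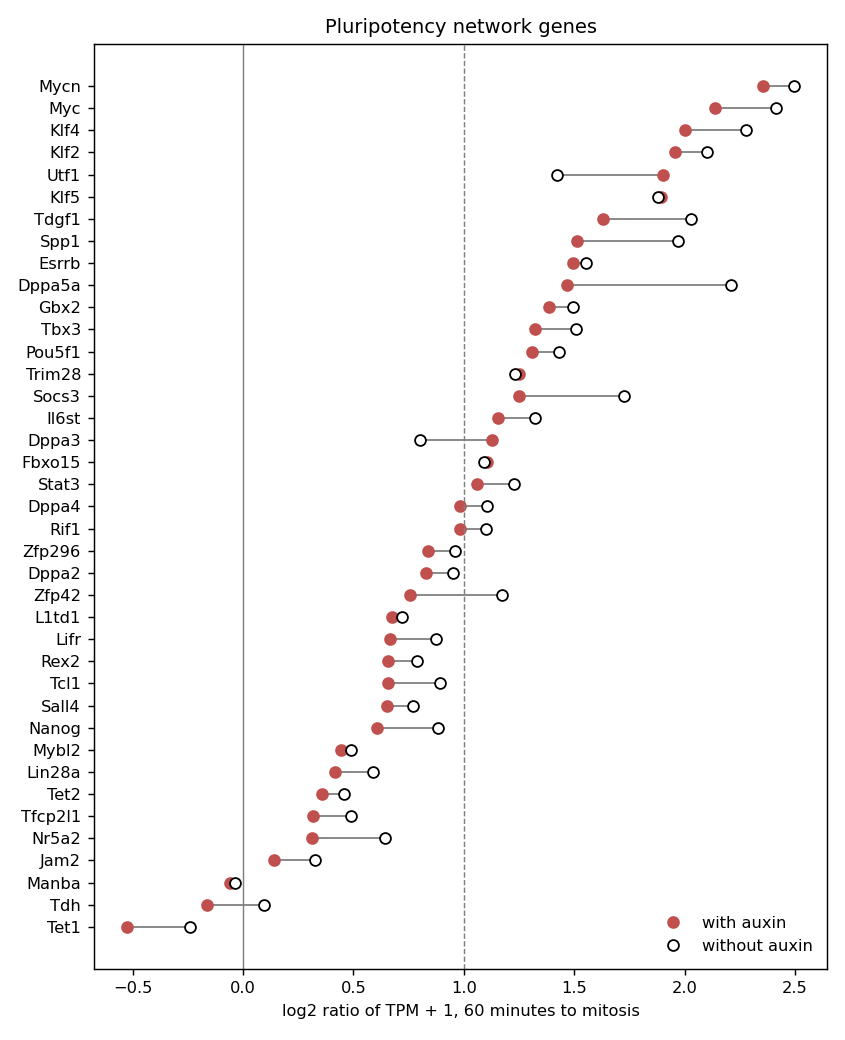
Log2 ratio of TPM + 1 at 60 minutes to mitosis for 39 of the 40 naive pluripotency genes, with auxin (filled) and without auxin (open), ordered by the ratio with auxin. In 34 of the 39 the filled point lies left of the open one, and the solid and dashed lines mark 0 and a 2-fold difference.

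The same comparison without auxin used libraries of its own and gave 4557 of the 8864 genes at least 2-fold higher, 51.4%, and 95.5% above mitosis, with a median of 1.02. The 2-fold genes of the arms overlapped in 4092 genes, which are 97.2% of those with auxin and 89.8% of those without. A lower ratio with auxin than without was the state of 7027 genes, 79.3%, with a median difference of -0.07. After scaling to equal sums 5093 genes were lower and the median difference was -0.01. At least 0.5 lower with auxin were 34 genes, 0.384%, and at least 0.5 higher 41 genes, 0.463%. Membership rested on the columns with auxin only, so genes that reached 1 TPM only without auxin were left out. With no such filter, 54 genes were at least 0.5 lower and 46 at least 0.5 higher. Of the naive pluripotency genes 35 of 40 had a lower ratio with auxin, with a median difference of -0.14, beside 79.3% and -0.07 of all genes. After scaling to equal sums these were 28 of 40 and -0.05. The difference between the arms was not tested, as no spread is known, and 27 of the 29 lists had a lower median with auxin.

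Single genes of the network showed the size. Dppa5a had 5.90 TPM in mitosis, 19.2 at 40 and 30.97 TPM at 60 minutes without auxin, and 6.10, 11.04 and 18.6 TPM with auxin, a difference of ratios of -0.75. The arms were alike in mitosis and apart at 60 minutes. Nanog had 3.35 TPM in mitosis and 7.02 TPM at 60 minutes without auxin, against 2.51 and 4.35 TPM, so it was lower with auxin at both ends, and its difference of ratios was -0.28. Zfp42 went from 18.6 to 43.2 TPM without auxin, with a difference of -0.42, and Socs3, Spp1, Tdgf1 and Nr5a2 had -0.47, -0.46, -0.40 and -0.33. Esrrb had -0.06. Utf1 and Dppa3 stood on the other side, with 0.48 and 0.32. Dppa3 reached 1 TPM with auxin only at 50 and 60 minutes, so its ratio is not independent of the member rule. Utf1 had 3.29 TPM in mitosis and 10.5 TPM at 60 minutes without auxin, and 1.49 and 8.29 TPM with auxin, so its level was lower with auxin at both stages although its ratio was higher.

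The largest differences between the arms were in other genes. Zc3h7a, a zinc finger RNA-binding protein, had the lowest, -2.07, from 12.1 TPM in mitosis and 4.93 TPM at 60 minutes with auxin against 3.59 and 7.75 TPM without. Its values with auxin jumped, from 2.09 TPM at 20 minutes to 88.5 at 40 and 6.19 at 50 minutes, and a group mean cannot be split by library. Snhg5, a host gene of small nucleolar RNAs, had the highest, 2.59: it was listed at 0 in both arms in mitosis and without auxin at 60 minutes, and at 5.04 TPM with auxin. At 50 minutes the sign of that difference was the opposite. Snhg15 followed with 1.67, from 2.58 TPM in mitosis with auxin and 8.34 TPM without. The other genes lowered most were Adat3, Fkbpl, Dusp28, Rps13, Upp1, E130317F20Rik, 9130221H12Rik, Lipt2, Mterf1a and Mir34a, with differences from -1.45 to -0.68, and those raised most Tssc4, 1700030C10Rik, Pspn, Ccdc107, 2310009A05Rik, Ints5, 1810014B01Rik, Mplkip, Tex21 and Efcab12, from 0.99 to 0.77. Most of them were below 5 TPM at 60 minutes in either arm. 2310009A05Rik, for one, was a member only through its 1.06 TPM at 60 minutes with auxin, so its raised ratio is not independent of the member rule.

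The authors' deposited table marks each gene as lower, higher or not responsive to auxin, a call made on these same libraries by a test whose stages are not stated. Among members called lower in the authors' deposited table, 804 genes, the median ratio with auxin was 0.76, among 765 called higher 0.86, and among 7295 not called 0.99. The median difference of ratios between the arms was -0.08 in genes called lower, -0.07 in genes called higher and -0.07 in the others. Genes called lower and genes called higher thus had a like difference between the arms in this comparison.

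Only 5 genes were at least 2-fold lower at 60 minutes than in mitosis: Mir496a, Zc3h7a, Mirg, E130102H24Rik and Rian. The span of E130102H24Rik holds Mir101a, whose value went the other way, as described above. Rian, Mirg and Mir496a lie in a row on chromosome 12, in the imprinted Dlk1-Dio3 region, where the maternal copy makes long noncoding RNAs and many microRNAs. Meg3, at chr12:109540996-109571729, precedes Rian, at chr12:109603945-109661716, and Mirg follows at chr12:109734981-109749458, with Mir496a inside it at chr12:109739119-109739197. Meg3 stood at 18.7 TPM in mitosis, 17.2 at 40, 18.8 at 60 and 14.7 TPM at 120 minutes. Rian stood at 7.54, 5.30, 3.26 and 12.8 TPM and Mirg at 2.37, 1.56, 0.537 and 9.48 TPM. Meg3, the first gene of the row, stayed between 14.7 and 21.1 TPM from mitosis to 120 minutes, while Rian and Mirg were lowest at 60 minutes and above the mitotic level at 120 minutes. Mir496a stood at 2.99, 2.39 and 0.791 TPM and was listed at 0 at 120 minutes, unlike Mirg around it, so reads of the pair may be split unevenly. Without auxin the ratios were -0.96 for Rian and -1.07 for Mirg, beside -1.004 and -1.13 with auxin. The wider imprinted list had 9 of 16 members at least 2-fold higher, with Peg3 at its upper end and Cdkn1c, a cell cycle inhibitor, from 0.279 to 4.54 TPM.

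The other genes of the lowest 12 included a pair of long ones. Nedd4, a ubiquitin ligase with a span of 87521 bp, stood at 8.97 TPM in mitosis, 6.57 at 40, 4.78 at 60 and 10.8 TPM at 120 minutes. Tns3, a focal adhesion protein with a span of 233107 bp, stood at 7.02, 5.30, 3.78 and 6.68 TPM. Both had their lowest value of the course at 60 minutes. E130102H24Rik, 1190005I06Rik, Adat3, Lrch4, Map2k7 and Acsf3 completed the lowest 12, each at 1.77 TPM or less in mitosis and at 0.291 TPM or less at 60 minutes.

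Gene span ordered the ratios over all members. The span is the distance from first to last base in RefSeq on GRCm38.p6, known for 8857 members. The members were split into 5 groups of equal size by span. In the shortest group, with a median span of 4672.5 bp, 64.4% of genes were at least 2-fold higher, and in the longest, with 94745 bp, 20.0%. The groups between had 56.2%, 52.8% and 43.9%. Median ratios were 1.22, 1.09, 1.05, 0.91 and 0.47 from shortest to longest. At 40 minutes the longest group stood at a median of 0.01 and at 90 minutes at 0.78, when the shortest had moved from 0.52 to 1.11. The highest value came at 120 minutes for 40.7% of the longest and 15.1% of the shortest genes. Of the 490 genes with a known span that were not above mitosis, 300 lay in the longest group, 61.2%. Without auxin the shortest and longest groups had 66.4% and 24.2% at least 2-fold higher. Level in mitosis gave no such order, with 44.7% to 53.8% across its 5 groups. By class, 47.9% of 8579 protein-coding genes and 34.3% of 242 long noncoding RNA genes were at least 2-fold higher.

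**Figure D5:**
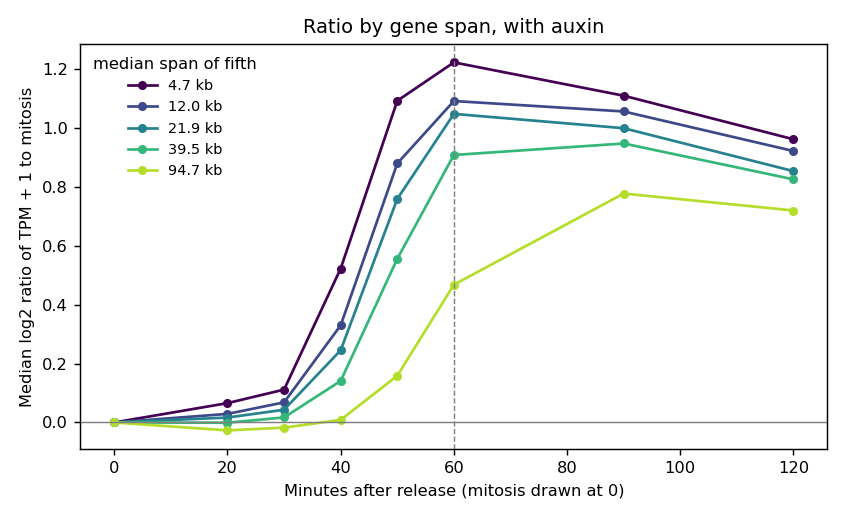
Median log2 ratio of TPM + 1 to mitosis with auxin against minutes after release, for 5 groups of member genes by span, each line labelled by the group's median span. At 60 minutes (dashed line) the medians run from 1.22 in the shortest to 0.47 in the longest group, which is still higher at 90 minutes.

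Sites of Nr5a2 were set beside the ratios. The authors deposited 35266 Nr5a2 peaks from wild-type E14Tg2a cells, with 1 of the class codes L, eB, dB and nB for each, whose meaning is not stated. Genes with no peak within 10 kb had 50.4% of 2497 at least 2-fold higher and genes with any peak 46.3% of 6360. For peaks of class L the share was 43.2%, for eB 45.5%, for dB 44.6% and for nB 44.4%. Genes with 5 or more peaks had 24.2%, and their median span was 71781.5 bp, against 17178 bp for genes with no peak. Within the longest group by span, genes with a peak had 19.4% and genes without 23.6%, and within the shortest 67.1% and 59.3%. Esrrb had 17 peaks, Nr5a2 5, Klf4 3 and Nanog 2.

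Promoter letters were read for the gene lists. The 4 windows below show the member with the highest ratio in its list whose upstream window holds that list's motif, with the motif in capitals, and are RefSeq sequence on GRCm38.p6, 90 bases 5′ to 3′ on the gene's strand. The motifs were searched on both strands, and a promoter window runs from 250 bases before to 50 after the start of a gene. Idi1 is at chr13:8885516-8885605 on the plus strand and Dnajb1 at chr8:83607981-83608070 on the plus strand, both with the CCAAT box, here read as ATTGG. Dtl, a ubiquitin ligase adaptor that acts on Cdt1, is at chr1:191575545-191575634 on the minus strand with the E2F letters TTTGGCGC. Btg2, an immediate early antiproliferative gene, is at chr1:134079273-134079362 on the minus strand with the cAMP response element TGACGTCA.
Idi1: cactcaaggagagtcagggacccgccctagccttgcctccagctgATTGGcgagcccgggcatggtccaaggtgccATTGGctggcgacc
Dnajb1: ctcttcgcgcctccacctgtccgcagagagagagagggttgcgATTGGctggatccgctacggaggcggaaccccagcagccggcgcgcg
Dtl: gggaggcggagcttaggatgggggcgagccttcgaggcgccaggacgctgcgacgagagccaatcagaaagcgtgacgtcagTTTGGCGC
Btg2: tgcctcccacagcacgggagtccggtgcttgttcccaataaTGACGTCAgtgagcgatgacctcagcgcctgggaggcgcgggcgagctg
The Idi1 window holds 2 CCAAT boxes, and the Dtl window also holds 1 CCAAT box and 1 cAMP response element and the Btg2 window 1 CCAAT box, all in lower case. An Nr5a2 peak of class eB lies on the promoter of Idi1.

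A CCAAT box was found in 40.5% of the 7200 members with a promoter window and in 37.9% of all 27025 windows. By 5 groups of the ratio at 60 minutes the share was 34.9%, 38.2%, 39.7%, 41.3% and 48.3% from lowest to highest. It was found in 18 of 22 cholesterol synthesis promoters, 32 of 42 mitotic and 29 of 43 G1/S promoters, and in 6 of 27 naive pluripotency promoters. The E2F letters, TTTGGCGC or TTTCCCGC, were in 3.58% of members and in 15 of 43 G1/S promoters. The element TGACGTCA was in 3.99% of members and in 1 of 16 immediate early promoters. The letters TCAAGGTCA, bound by receptors like Esrrb and Nr5a2, were in 21 of 7200 member promoters and in none of 27 naive promoters, so no naive promoter is printed. A match is a run of letters and not a measured site.

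Markers of cell identity were summed as a check of the label. The 9 embryonic stem cell markers in the table, of 10 listed, summed to 43.6 TPM in mitosis and 107 TPM at 60 minutes with auxin. Primitive endoderm markers summed to 0.0855 and 0.558 TPM, trophectoderm to 0.126 and 2.05, fibroblast to 0.649 and 3.82, germ layers to 1.62 and 5.85 and 2-cell-like markers to 0.166 and 0.121 TPM. No marker in the table was at 0 at 60 minutes, while Cdx2 and Mixl1 were at 0 in mitosis. The sums of the other cell types, except the 2-cell-like one, rose by a larger factor than the stem cell sum, from low levels. Their part in the ratios was not tested.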

How the data were processed

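RNA was measured in 54 RNA-seq libraries, ribo-depleted and stranded per the labels' protocols, of which 6 make the 2 groups compared. The authors deposited 1 TPM column per group of 3 libraries, and STAR, RSEM, DESeq2, Bowtie2 and MACS2 with mm10 are named per the submitters' processing notes, without versions. All 246530 values above 0 were whole at 9 decimals once tripled (tolerance 0.02 of the final decimal). A second deposited file lists Nr5a2 peaks with start, end and a class code. From the deposited TPM, log2(TPM + 1) differences were computed in Python 3.11.15 with pandas 2.3.3 and numpy 2.4.6, over genes of at least 1 TPM in any of the 9 columns with auxin. Group means left no spread for the planned limma test, so no result has a test. Whether the 3 libraries of each group were separate cultures is not stated. Differences of the arms used 0.5 on the log2 scale. Peaks were assigned to genes within 10 kb, and gene positions came from RefSeq on GRCm38.p6.

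The members and the gene lists were chosen with earlier results of these data known. Genes were named by rule: the 20 highest and 12 lowest ratios, the 3 highest and 2 lowest members of each list, every naive pluripotency gene, the 12 most lowered and 12 most raised ratios with auxin against without, up to 12 microRNA genes, and the 8 highest levels and TPM gains at 60 minutes. Meg3 and the genes past 2-fold at 30 minutes were added after their values were seen. Of the naive pluripotency genes 1 is not reported here on its own, and it stays in the counts. The calculations were tested on simulated data. Alternatives were pseudocounts of 0.1 and 0.5, a minimum of 5 TPM or none, quantile normalization, equal sums, centring on the median, 20 minutes as the base, and 50 or 90 minutes in place of 60.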

Additional observations from a re-analysis of the deposited data

How the results depend on the processing

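No paired analysis was possible because only group means were deposited, and for the same reason no library could be left out. Counts are in the order higher, lower and above mitosis. Quantile normalization gave 475, 339 and 4507 genes, equal sums 559, 329 and 4778, and centring on the median 557, 390 and 4432, against 4208, 5 and 8372 on the deposited scale. Under these 3 scalings, in that order, 1238, 1406 and 1040 genes were highest at 60 minutes (3266 as deposited). The shortest of 5 groups by span had 246, 280 and 243 genes at least 2-fold higher (1142) and the longest 13, 14 and 14 (354), genes with an Nr5a2 peak 334, 387 and 386 (2945) and genes without 141, 172 and 171 (1258). A ratio raised by 0.5 or more with auxin was found in 64 genes after quantile normalization and 63 with equal sums (41). With genes of at least 5 TPM, 2540 were higher, 3 lower and 3692 above, and 1554 were highest at 60 minutes. The shortest group then had 620, genes with a peak 1816 and without 720, and 8 ratios were lowered and 11 raised by 0.5 or more. These counts are out of fewer genes. Under that filter 15 lists stood above the all-gene share (25), and that share was itself taken over the smaller set of genes. A pseudocount of 0.1 gave 22 lower genes, 669 in the longest group, 174 ratios lowered (34) and 178 raised, and 0.5 gave 10 lower genes, 67 ratios lowered and 76 raised. Without a filter the longest group had 187 genes at least 2-fold higher, and 54 ratios were lowered and 46 raised. With 20 minutes as the base 3 genes were lower and with 90 minutes 2. At 50 minutes 2742 genes were higher, 72 in the longest group and 1878 with a peak, and 23 ratios were raised.

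Of 72 named genes above mitosis by less than 2-fold, 62 were below it after quantile normalization, 62 with equal sums and 68 after centring. Among named ratios of at least 2-fold, and differences between arms of at least 0.5, directions turned as follows, and the cause was not tested. Quantile normalization gave Ccdc107 -0.0608, Fbxo15 -0.12, Fn1 -0.11 and Stat3 -0.13. Equal sums gave Ankrd10 -0.18, Fbxo15 -0.0535, Fn1 -0.0772, Pou5f1 -0.000215 and Stat3 -0.0580. Against 20 minutes Zc3h7a stood at 0.94, and the differences between arms were 0.14 for 9130221H12Rik and 0.30 for Mir34a. At 50 minutes that of Snhg5 was -1.18. At 90 minutes Rian stood at 0.43, and the differences were 0.0597 for Adat3, -0.18 for Ccdc107 and 0.32 for Mterf1a. Of the other single-gene ratios under the alternatives, 2064 kept their side of the 2-fold line and 335 crossed it. Depth per library is unknown, so its limit on low genes could not be set.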
